A study of Mus musculus with 4 samples.

Results

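Gene expression was compared between Dclk1+ and Dclk1- cells of mouse small intestinal tumors, 1 array each, which are 2 of the 4 arrays in the series. The Dclk1+ tumor sample pooled intestinal tumors of 7 male Dclk1CreERT2/+; ApcMin/+ mice older than 16 weeks, and the Dclk1- tumor sample came from tumors of 1 male mouse of the same genotype aged 17 weeks. The other pair, shown only beside the tumor values, came from normal small intestine of male Dclk1CreERT2/+ mice aged 26 weeks, with 1 mouse for the Dclk1- sample and 2 pooled mice for the Dclk1+ sample. All samples therefore carried 1 Dclk1CreERT2 allele, and both tumor samples carried ApcMin. Per the labels' protocol, Dclk1+ tumor cells were obtained by sorting GFP-expressing cells. For the other samples no gate is given in the sources used here, nor is the construct that carries GFP. Each tumor group is 1 array, so no test was possible, and the number of mice behind the array cannot be told apart from Dclk1 status.

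Dclk1 encodes a doublecortin-like kinase that binds microtubules and marks tuft cells. Tuft cells are rare chemosensory cells of the gut epithelium: they sense luminal metabolites and parasites through a taste-type cascade of G proteins, phospholipase C and the channel Trpm5. They release interleukin 25, leukotrienes and prostaglandins, which act on immune cells of the mucosa. The ApcMin allele truncates Apc, a brake on Wnt signalling, and mice that carry it develop many small intestinal adenomas. In such adenomas, cells that resemble the normal lineages of the epithelium lie beside proliferating tumor cells.

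Each array held 23473 probes, of which 16631 had 1 gene symbol, and these stood for 16390 genes. Spots were above background, that is more than 2 SD over the mean blank spot of the same array, for 10914 genes in Dclk1- and 11565 genes in Dclk1+ tumor cells. Levels below are the authors' deposited normalised intensities, which are linear but scaled separately on each array. Log2 differences are Dclk1+ minus Dclk1- after a background correction that adds an offset of 50 and thereby compresses differences of dim genes. A gene was compared where it was above background on 1 or both tumor arrays, and it was counted as higher or lower at 4-fold or more for single genes and at 2-fold or more within gene lists. In the text, "A against B" gives the Dclk1+ level and then the Dclk1- level, and the number in brackets after a pair of levels is the log2 difference. Deposited levels ran higher in the Dclk1+ tumor sample by a median of 0.35 on the log2 scale, so small ratios of levels can differ in sign from the log2 difference. Where a gene was above background on only 1 array, its difference is given as a lower bound; with such genes at their bound no list median moved by more than 0.07. In bulk samples fewer cells of a type and less RNA per cell cannot be told apart.

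The sort was checked with Dclk1 itself. In tumors its level was 9.49 in Dclk1- cells and 61.8 in Dclk1+ cells, a ratio of 6.505, and the log2 difference with the offset was 0.69. In normal epithelium the Dclk1 levels were 179.8 in Dclk1- and 736 in Dclk1+ cells, with a log2 difference of 1.41. The label thus ran the same way as the gene in both pairs, while the Dclk1 signal of Dclk1+ tumor cells was dim. Other tuft identity genes lay on both sides of Dclk1 in log2 difference, from Chat (0.05) to Lrmp (5.89), with dim genes compressed by the offset.

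Of 12198 genes compared, 52 (0.426%) were 4-fold or more higher and 36 (0.295%) were 4-fold or more lower in Dclk1+ tumor cells. At 2-fold the counts were 215 (1.76%) higher and 261 (2.14%) lower. The higher genes were led by tuft cell genes and the lower genes by genes of absorptive cells. The median log2 difference of all genes compared was 0.01, and 5th and 95th percentiles lay at -0.68 and 0.62. Of the 12198 genes 6560 lay above 0 and 5638 below, and counts by sign shift with the scaling. The genes just inside the threshold were Slc41a3 at 2.02 and, on the lower side, Phgr1 at the threshold itself, and those just outside were Gpr62 at 1.998, Samd9l at 1.998 and Tff3 at -1.98. With the offset at 16 the counts were 84 higher and 76 lower. From the deposited values, which have no offset and are also scaled differently, they were 530 and 417. Higher genes made up 59.1% of the genes past 4-fold, against 44.3% with median scaling and 42.9% with the blank mean subtracted.

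**Figure D1:**
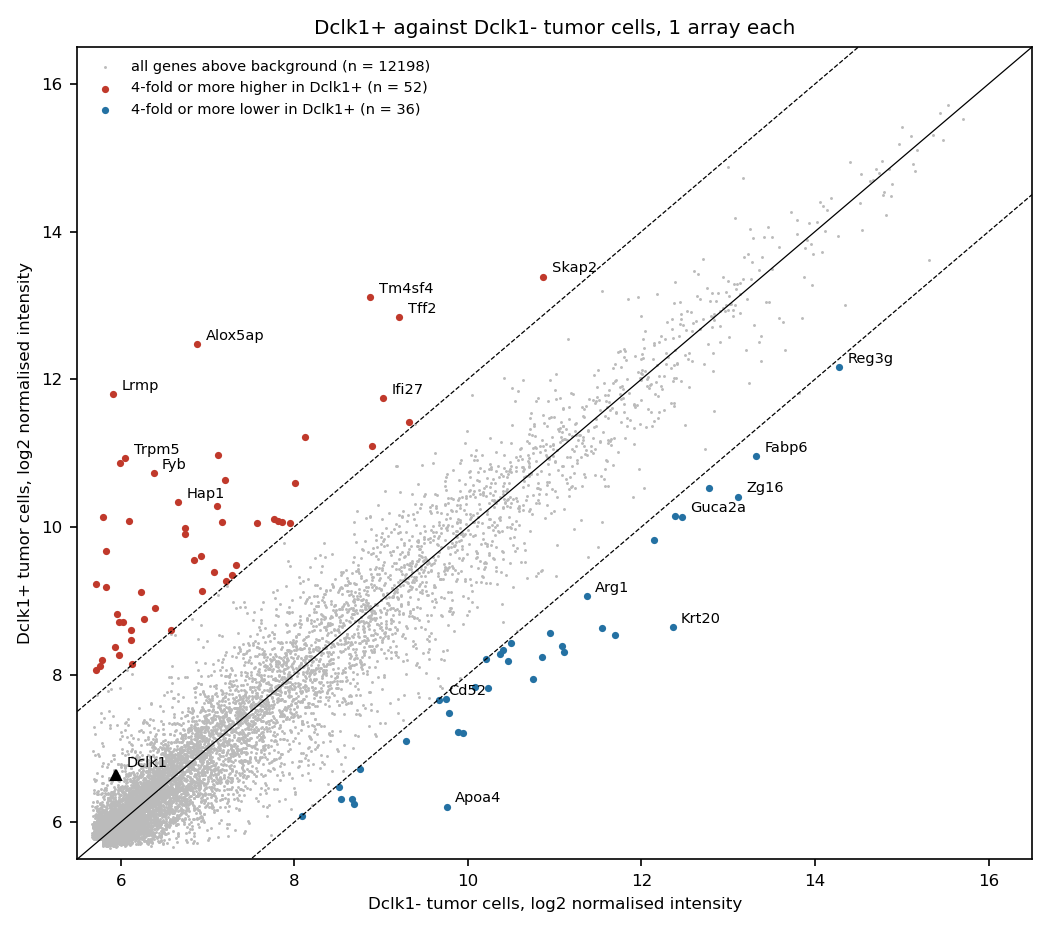
Log2 normalised intensity of each gene in Dclk1- (horizontal axis) and Dclk1+ tumor cells (vertical axis), 1 array each. Grey points are the 12198 genes above background on 1 or both arrays, red the 52 genes 4-fold or more higher in Dclk1+ cells, blue the 36 lower; the solid line marks equal values and the dashed lines 4-fold. Lrmp (5.89) and Alox5ap (5.60) lie farthest above the lines, and Krt20 (-3.72) and Apoa4 (-3.54) farthest below; the triangle marks Dclk1. The sign of Apoa4 turned with the local background subtracted.

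Genes of tuft cell structure and identity had the highest median of the gene lists. Of the 31 members above background, 13 were 2-fold or more higher and 0 were lower, all 31 had a difference above 0, and the median was 0.91. Among all genes 1.76% were 2-fold or more higher in the tumor pair. Of these 31, 9 were above background on 1 tumor array only. A gene that passes only through the Dclk1+ array is nearly bound to lie above 0, so the filter partly sets the sign count. Lrmp, a membrane protein of the endoplasmic reticulum found in lymphocytes and taste cells, had 8.09 in Dclk1- cells and 4518 in Dclk1+ cells, the largest difference of all genes compared (5.89). Rgs13, which shortens G protein signals, was not listed in Dclk1- cells and stood at 696 in Dclk1+ cells, at least 10.8-fold higher. Inpp5j, a phosphoinositide phosphatase, had 100.2 in Dclk1- cells and 2423 in Dclk1+ cells (3.85). Avil, the actin bundler advillin, had 102 in Dclk1- cells and 629.5 in Dclk1+ cells (1.95). Aldh2, the mitochondrial aldehyde dehydrogenase, had 1054 in Dclk1- cells and 4432 in Dclk1+ cells (1.73). Vil1, the microvillus protein villin that absorptive cells also make, had 3674 against 1682 and a log2 difference short of 2-fold (0.76). In the normal pair, where 5.65% of 12844 genes were 2-fold or more higher and 5.92% lower, 23 of 33 members were higher and 0 lower, with a median of 2.13.

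Of 11 transcription factors linked to tuft cells, 2 were 2-fold or more higher and 0 lower, where 1.76% of all genes were higher, and the median was 0.04. Gfi1b, a zinc finger repressor known from blood cell formation, had 3.92 in Dclk1- cells and 677 in Dclk1+ cells (3.35). Hmx2, a homeobox factor, was not above background in Dclk1- cells and stood at 1353 in Dclk1+ cells, at least 20.2-fold higher. Pou2f3, the factor that tuft cells need to form, was not above background on either tumor array, so its probe gave no comparison. Spib, an Ets factor, stood at 21.2 against 6.44 (0.22) and Sox9, a factor of the crypt base, at 16.2 against 12.4 (0.02), both dim, with log2 differences compressed by the offset.

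Taste-type transduction followed the tuft list. Of 14 members above background, 6 were 2-fold or more higher and 0 lower, with a median of 0.58 against 1.40 in the normal pair. The share of all genes 2-fold or more higher in the tumor pair was 1.76%. Along the cascade, the G protein subunit Gng13 had 11.7 in Dclk1- cells and 2226 in Dclk1+ cells (4.87). Phospholipase C beta 2, Plcb2, which makes the second messenger IP3, had 17.2 in Dclk1- cells and 1285 in Dclk1+ cells (3.98). Trpm5, the calcium-gated cation channel at the end of the cascade, had 14.8 in Dclk1- cells and 2343 in Dclk1+ cells (4.88). All 3 were high only in the Dclk1+ sample, and their Dclk1- levels were dim. Plcg2, a second phospholipase C, had 489.8 against 11.5 (2.73), the phosphodiesterase Pde2a 403 against 18.4 (2.34) and the signal regulator Rgs2 1529.5 against 487 (1.33). Gnat3, the alpha subunit gustducin, was dim on both arrays at 42.2 against 7.02, and its log2 difference, compressed by the offset, was 0.51, and the widely used subunit Gnb1 stood at 1182 against 1015 (-0.05). The taste receptor genes Tas1r3, Tas2r108, Tas2r138 and Tas2r143 were not above background on either tumor array. The taste receptor gene Tas1r1 was above background on 1 or both, with a log2 difference of 0.29.

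Leukotriene and prostaglandin synthesis was split by enzyme. Of 18 members, 5 were 2-fold or more higher and 1 lower, and the median was 0.05. Over all genes the shares were 1.76% higher and 2.14% lower. Alox5ap, which presents arachidonic acid to 5-lipoxygenase, had 75.5 in Dclk1- cells and 7626 in Dclk1+ cells (5.60), the second largest difference of all genes. The 5-lipoxygenase gene Alox5 was not listed in Dclk1- cells and stood at 123 in Dclk1+ cells, at least 2.63-fold higher. Ltc4s, which makes leukotriene C4, had 10.2 in Dclk1- cells and 533 in Dclk1+ cells (2.86), and Ptgs1, the cyclooxygenase that starts prostaglandin synthesis, had 204 in Dclk1- cells and 1272 in Dclk1+ cells (2.19). Lta4h, which makes leukotriene B4 instead, was not higher, with 811 against 1111 (-0.68). Of the microsomal glutathione transferases, Mgst3 was higher at 12852 against 3051 (1.66) and Mgst1 lower at 757 against 2091 (-1.68).

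The alarmins and receptors of type 2 immunity were mostly dim: 2 of 15 members were 2-fold or more higher, 1 was lower, and the median was 0.11. For all genes the 2-fold shares were 1.76% higher and 2.14% lower. Il17rb, the receptor chain for interleukin 25, was not listed in Dclk1- cells and stood at 286 in Dclk1+ cells, at least 4.81-fold higher. Tslp, an epithelial alarmin, had 2.898 in Dclk1- cells and 157 in Dclk1+ cells (1.604). Il25 itself was above background only in Dclk1+ cells, at 72.4, at least 1.95-fold higher. Il4ra, the receptor chain shared by interleukins 4 and 13, was the lower member at 109 against 277 (-1.15). Its normal pair had 253 against 169 (0.25), under 2-fold apart.

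Signalling adaptors and kinases best known from blood cells were higher for 5 of 27 members and lower for 1, with a median of 0.13. Fyb, an adaptor that links receptors to the actin skeleton, had 34.6 in Dclk1- cells and 2026 in Dclk1+ cells (4.35). Rac2, a small GTPase of blood cells, had 25.4 in Dclk1- cells and 645 in Dclk1+ cells (2.88), and Skap2, the partner adaptor of Fyb, had 1872 in Dclk1- cells and 14772 in Dclk1+ cells (2.53). The phosphatase Ptpn6 had 8.27 in Dclk1- cells and 160.4 in Dclk1+ cells (1.52), and the kinase Stk17b was the lower member at 78.6 against 244 (-1.26). Btk, a kinase of B cells, was near background on both arrays at 3.18 against 3.59. Beside these genes, 0 of 20 myeloid, 0 of 11 T and NK cell, 0 of 10 B and plasma cell and 0 of 7 mast cell markers were 2-fold or more higher, where 1.76% of all genes were. Of the myeloid markers 1 lay above 0, of the T and NK cell markers 6, of the B and plasma cell markers 7, led by Cd79b, a chain of the B cell receptor, at 280.1 against 95.4 (0.97), and of the mast cell markers 4. With 75th percentile scaling these counts above 0 were 4, 8, 9 and 5. Of all 12198 genes 6560 lay above 0 in the main setting. The part of leukocytes in the adaptor genes was not tested.

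Cytoskeletal genes are given beside the shares of all genes, of which 1.76% were 2-fold or more higher and 2.14% lower. In the actin and microvillus list 1 of 16 was 2-fold or more higher (Avil, above), 1 was lower and the median was 0.04; the lower member was the fimbrin Pls1 at 262 against 788 (-1.70). In the tubulin and microtubule list 1 of 22 was higher and 1 lower, with a median of 0.06. Dnah6, a dynein heavy chain, was not listed in Dclk1- cells and stood at 299 in Dclk1+ cells, at least 5-fold higher, and the microtubule protein Mapt stood lower at 27.3 against 125 (-1.13). Dclk3 and Dcx, relatives of Dclk1, were dim, at 14.98 against 6.08 and 6.39 against 9.56, and Dclk2 was not above background on either array.

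Ion channel genes held 3 higher members and 1 lower of 24, with a median of 0.04. Shares over all genes at 2-fold were 1.76% higher and 2.14% lower. Beside Trpm5, the potassium channel gene Kcnj16 had 4.32 in Dclk1- cells and 957 in Dclk1+ cells (3.83) and Kcnmb4, a subunit of the large-conductance potassium channel, had 20.5 in Dclk1- cells and 304 in Dclk1+ cells (1.98). Trpm4, the closest relative of Trpm5, was close to equal at 389 against 363 (-0.15). Of the synaptic and neuronal genes 1 of 20 was higher and 0 lower, with a median of 0.05: Nrgn, a calmodulin-binding protein of neurons, had 106 in Dclk1- cells and 1281 in Dclk1+ cells (2.91). Chat, the enzyme that makes acetylcholine and is known in tuft cells, was dim at 13.6 against 8.71 (0.05).

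**Figure D2:**
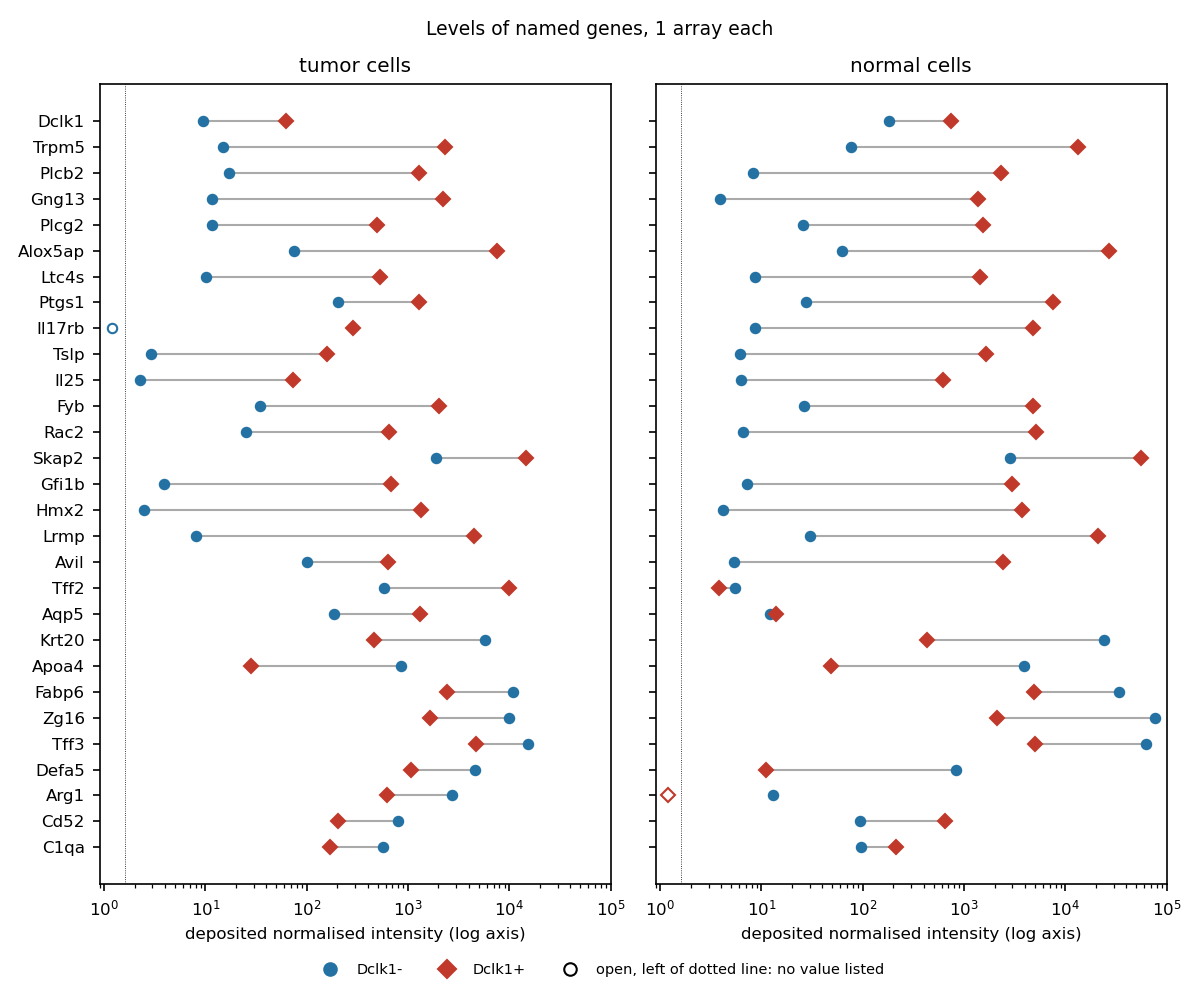
Deposited normalised intensity on a log axis of 29 genes in tumor cells (left) and normal cells (right), with circles for the Dclk1- array and diamonds for the Dclk1+ array; an open mark left of the dotted line means that no value was listed. In tumor cells the tuft genes from Dclk1 to Avil lie to the right in Dclk1+ cells, and the genes from Krt20 to C1qa lie to the left. Tff2 and Aqp5 are far apart in the tumor panel and close together in the normal panel.

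Of the 52 genes 4-fold or more higher, 25 belonged to none of the 40 gene lists. Hap1, a huntingtin-associated transport protein, had 56.3 in Dclk1- cells and 1562 in Dclk1+ cells (3.67). Mcub, which dampens calcium entry into mitochondria, had 109.8 in Dclk1- cells and 1911 in Dclk1+ cells (3.44). Hepacam2, an adhesion molecule of the immunoglobulin family, had 62.7 in Dclk1- cells and 1149.8 in Dclk1+ cells (3.17). S100a1, a calcium-binding protein, stood at 2959 against 254 (3.09), the kinase subunit Camk2b at 499 against 26.8 (2.49) and Camkk2, a kinase of other calmodulin kinases, at 1288 against 195 (2.27). Snrnp25, a splicing protein, had 1514 against 99.00 (3.17), the cyclin Ccnj 446 against 18.5 (2.48), and Ccpg1, a receptor for autophagy of the endoplasmic reticulum, 1271 against 159 (2.49). Svbp, a partner of the enzymes that remove the last tyrosine of tubulin, stood at 2670.4 against 461 (2.21). Further down were the phospholipase Pnpla6 at 2.201, the decapping protein Dcp1b at 2.15, the sulfur dioxygenase Ethe1 at 2.07 and the nucleotide reductase Gmpr at 2.05. Less is known of Fam221a (2.71), Rflna (2.69), Txndc16 (2.51) and Zfp11 (2.31), and the protease inhibitor Pzp was at least 5.3-fold higher. Tm4sf4, a tetraspanin-like membrane protein listed here with enterocyte genes, went the other way from that list at 456 in Dclk1- cells and 11862 in Dclk1+ cells (4.23). Bcl2l14, of the Bcl2 family and counted below with apoptosis genes, had 62.8 in Dclk1- cells and 1205 in Dclk1+ cells (3.24). Its sign turned with the local background subtracted.

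Promoters of the higher genes were searched for the octamer bound by POU factors, the family of Pou2f3. The letters were ATGCAAAT, or ATTTGCAT on the other strand, and the window ran from 250 bases before to 50 after the start of transcription in RefSeq (GRCm38.p6), 300 bases in all. The octamer was in 1 of 58 promoters (1.72%) of the 43 higher genes with a promoter in the table, and in 0 of 35 promoters of 31 lower genes. Of all 32851 promoters 570 (1.74%) held it, and of 12381 promoters of genes compared 179 (1.45%), so the share among the higher genes was near the background. The 1 match was the zinc finger gene Zfp428, whose level was 622 in Dclk1- cells and 3538 in Dclk1+ cells (2.098). It is printed below as the only promoter of a higher gene with the motif, from the table of RefSeq promoters: the 250 bases before the start, chr7:24506837-24507086 on the + strand, with the 2 octamers in capitals. They begin 125 and 71 bases before the start. A match is a description of these letters and no measure of binding.
Zfp428: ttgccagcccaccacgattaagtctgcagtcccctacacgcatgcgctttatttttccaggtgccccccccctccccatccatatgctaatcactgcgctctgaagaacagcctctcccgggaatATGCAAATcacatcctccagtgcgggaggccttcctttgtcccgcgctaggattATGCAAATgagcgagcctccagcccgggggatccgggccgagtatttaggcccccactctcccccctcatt

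Most of the genes that separated the tumor samples also separated the normal samples. Of the 52 higher genes, 47 were 4-fold or more and 48 were 2-fold or more higher in Dclk1+ normal cells, and 0 were 2-fold the other way. For 41 the log2 difference was larger in the normal pair than in the tumor pair. The 4 others were Tff2, Sct, Aqp5 and Pcolce2. Tff2, a trefoil peptide made in the stomach and duodenum, had 581 in Dclk1- cells and 9925 in Dclk1+ cells (3.63) and was near background in the normal pair, with 5.46 and 3.77 (-0.04). Aqp5, a water channel of secretory glands, had 188 in Dclk1- cells and 1308 in Dclk1+ cells (2.33), and its normal levels were 12.2 and 13.98. Pcolce2, which aids procollagen cleavage, had 11.3 in Dclk1- cells and 339 in Dclk1+ cells (2.28) while both normal arrays were at background for it. Sct, the hormone secretin, differed in another way: it had 80.8 in Dclk1- cells and 908 in Dclk1+ cells (2.67), but was bright on both normal arrays with 5113 and 6275 (-0.18). Whether the pairs differ cannot be tested with 1 array in each group.

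**Figure D3:**
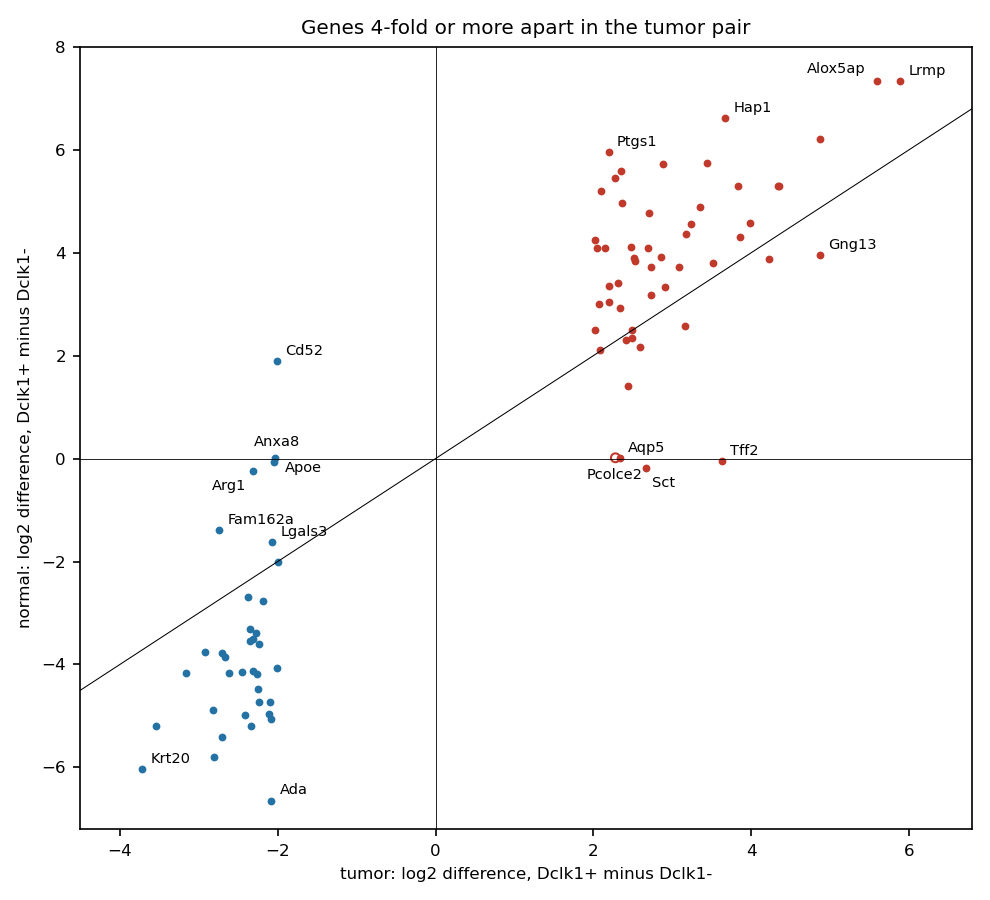
Log2 differences, Dclk1+ minus Dclk1-, in the tumor pair (horizontal axis) and the normal pair (vertical axis) for the 52 genes 4-fold or more higher (red) and the 36 lower (blue) in Dclk1+ tumor cells; the diagonal marks equal differences and an open circle a gene not above background in the normal pair. Of the red points 41 lie above the diagonal. Tff2, Sct, Aqp5 and Pcolce2 lie near 0 on the vertical axis, and Cd52 lies at -2.01 and 1.899.

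Genes of absorptive cells led the lower side. In the enterocyte list 16 of 39 members were 2-fold or more lower, 1 was higher (Tm4sf4) and the median was -0.64. Of the 39 members 31 lay below 0 and 8 above. Shares over all genes at 2-fold were 2.14% lower and 1.76% higher. In the normal pair 26 of 43 were lower, 2 higher and the median was -2.15. Krt20, the keratin of mature epithelium at the villus tip, had 5699 in Dclk1- cells and 463 in Dclk1+ cells (-3.72). Apoa4, an apolipoprotein of chylomicrons, had 847 in Dclk1- cells and 28.3 in Dclk1+ cells (-3.54), and the fatty acid binding protein Fabp2 had 7706 in Dclk1- cells and 1766 in Dclk1+ cells (-2.26). Mep1b, a brush border protease, had 397 in Dclk1- cells and 30.2 in Dclk1+ cells (-2.45). The peptides Guca2a and Guca2b, ligands of the intestinal guanylate cyclase receptor, had 1368 against 6254 (-2.33) and 35.4 against 387 (-2.35). Ada, which breaks down adenosine, had 842 in Dclk1- cells and 203 in Dclk1+ cells (-2.08), and the normal pair was much farther apart at 279.7 against 26544 (-6.65). Slc28a2, a nucleoside transporter, Slc3a1, a subunit of the cystine transporter, and Dpep1, a membrane dipeptidase, lay at -2.81, -2.08 and -2.01. With the local background subtracted the sign turned for Apoa4, Slc28a2 and Dpep1.

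Ileal genes of bile acid handling had the second lowest list median, -0.998, with 6 of 13 members 2-fold or more lower and 0 higher. The share of all genes 2-fold or more lower was 2.14%. The ileal bile acid binding protein Fabp6 had 10906 in Dclk1- cells and 2410 in Dclk1+ cells (-2.35). The exporter subunits Slc51a and Slc51b had 238 against 1078 (-2.25) and 457 against 3072 (-2.92), and the importer Slc10a2 had 77.9 against 293 (-1.498). With the local background subtracted the sign turned for Slc51a. Clec2h, a lectin-like membrane protein, and the membrane mucin Muc3 lay at -3.16 and -2.67. These genes mark the distal small intestine, and no label used here gives the position of the tumors along the gut.

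Of 19 goblet cell genes 6 were 2-fold or more lower and 1 higher, with a median of -0.30. Over all genes the shares were 2.14% lower and 1.76% higher. Zg16, a lectin of mucus granules, had 9847 in Dclk1- cells and 1632 in Dclk1+ cells (-2.704), and the trefoil peptide Tff3 had 15386 in Dclk1- cells and 4644 in Dclk1+ cells (-1.98). Retnlb, a secreted peptide, had 796 against 1866 (-1.43), Spink4 3993 against 8033 (-1.26) and the goblet cell protein Clca1 74.5 against 260 (-1.38). Muc2, the main gel mucin, had 90.99 against 43.9 and a log2 difference short of 2-fold (0.43). Ern2, a stress sensor of the endoplasmic reticulum in mucus cells, was the higher member at 2296 in Dclk1- cells and 8132 in Dclk1+ cells (1.404), while the normal pair had 81.9 against 700.3 (-2.42). Of 9 Paneth cell genes 5 were lower and 0 higher, with the lowest list median of -1.15: the defensin Defa5 had 4637 in Dclk1- cells and 1078 in Dclk1+ cells (-2.31), the lectin Reg3g 21973 in Dclk1- cells and 6169 in Dclk1+ cells (-2.12) and Itln1, intelectin, 1781 against 4384 (-1.499). Close relatives of the defensins can bind the same probe.

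Enteroendocrine genes were largely dim, with 14 of 31 on the array not above background in the tumor pair. Of 17 compared, 1 was 2-fold or more higher (Sct, above) and 3 lower, and the median was -0.12. Shares over all genes were 1.76% higher and 2.14% lower. The hormones Gip and Cck had 14.4 against 148 (-1.49) and 28.6 against 116 (-1.03). The third lower member was Vim, the filament protein vimentin, which is also in the fibroblast list.

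Of 23 crypt stem cell genes 0 were 2-fold or more higher and 0 lower, with a median of 0.03; other settings gave up to 5 higher and 1 lower. Of all genes 1.76% were 2-fold or more higher and 2.14% lower. Lgr5, the stem cell receptor, had 60.3 in Dclk1- cells and 59.1 in Dclk1+ cells (-0.11), Olfm4 had 152 against 150 (-0.12) and the stem cell factor Ascl2 had 432 against 187 (0.79). Of 27 Wnt targets and feedback genes 1 was lower and 0 higher, with a median of -0.01: the secreted inhibitor Wif1 had 743 in Dclk1- cells and 208 in Dclk1+ cells (-1.87), and 0.67 with the local background subtracted. Nkd1 and Notum, inhibitors that Wnt signalling switches on, had 1191 against 1484 (-0.57) and 194 against 169 (-0.01). Among 22 lineage transcription factors 1 was higher and 1 lower, with a median of -0.01: the intestinal homeobox factor Cdx1 had 145 in Dclk1- cells and 536 in Dclk1+ cells (1.38) and Gata6 had 732 in Dclk1- cells and 357 in Dclk1+ cells (-1.23), and 0.94 with the local background subtracted.

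Genes of fetal, regenerating and stressed epithelium were lower for 8 of 28 members and higher for 1, Tff2, with a median of -0.14. For all genes the 2-fold shares were 2.14% lower and 1.76% higher. Anxa8 and Anxa1, membrane-binding annexins, had 416 in Dclk1- cells and 68.7 in Dclk1+ cells (-2.04) and 253 in Dclk1- cells and 83.00 in Dclk1+ cells (-1.26). S100a6 and S100a10, small calcium-binding proteins, had 3384 against 6332 (-1.12) and 7241 against 13435 (-1.26), and Ly6d had 42.8 against 233 (-1.598). Clu, clusterin, was bright in both samples and under 2-fold apart at 14492 against 8689 (0.44). In the keratin and junction list 0 of 24 were higher and 2 lower, Krt20 and the cadherin Cdh17 at 6571 against 11096 (-1.13), with a median of -0.13. General epithelium markers were higher for 1 of 17 (Cdx1) and lower for 2 (Krt20 and Cdh17), with a median of -0.01; the adhesion molecule Epcam stood at 849.6 against 1436 (-0.97) and the tight junction gene Cldn7 at 9644 against 6129 (0.35).

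Lists of cell state gave few members past 2-fold, as did all genes, of which 1.76% were higher and 2.14% lower. Of 38 cell cycle genes 0 were higher and 1 lower, with a median of -0.27, and 29 of the 38 lay below 0. Birc5, a mitotic survival protein, was the lower one at 1018 in Dclk1- cells and 543 in Dclk1+ cells (-1.14), but lay at 2.53 with the local background subtracted, while Mki67 and Top2a were dim at 42.9 against 19.4 (0.28) and 50.02 against 21.8 (0.33). Cell cycle inhibitors and apoptosis genes had 1 of 21 higher (Bcl2l14) and 0 lower, with a median of 0.04; Cdkn1a, the inhibitor p21, stood at 607 against 256 (0.88). Immediate-early genes had 1 of 25 lower, Klf6 at 308 against 668 (-1.26), 0 higher and a median of -0.09. Glycolysis had 1 of 21 higher, the regulator Pfkfb3 at 148 against 28.7 (1.06), 0 lower and a median of -0.03. The secretory pathway and unfolded protein list had 1 of 29 higher (Ern2), 0 lower and a median of -0.02. Oxidative phosphorylation had 0 of 35 higher and 0 lower with a median of -0.11, and cytosolic ribosomal proteins 0 of 25 higher and 0 lower with a median of -0.00.

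Metabolic enzymes for alcohols, drugs and glutathione conjugation were lower for 7 of 31 members and higher for 2, with a median of -0.28. Over all genes the shares were 2.14% lower and 1.76% higher. The cytochrome Cyp3a13 had 1722 in Dclk1- cells and 256 in Dclk1+ cells (-2.82), the alcohol dehydrogenase Adh6a 1869 in Dclk1- cells and 331 in Dclk1+ cells (-2.62) and the glutathione transferase Gsta2 1986 in Dclk1- cells and 435 in Dclk1+ cells (-2.38). The higher members were Aldh2, given above, and the alcohol dehydrogenase Adh7 at 145 against 26.6 (1.08).

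Of 23 interferon-stimulated genes 4 were 2-fold or more higher and 0 lower, with a median of 0.04, where 1.76% of all genes were higher. Ifi27 had 509 in Dclk1- cells and 4372 in Dclk1+ cells (2.73), the RNA sensors Oas1a and Oas2 had 1861 against 231 (2.59) and 308 against 19.1 (2.02), and the antiviral protein Rsad2 had 263 against 64.1 (1.204). Of 27 chemokines and secreted defence genes 7 were lower and 0 higher, 26 lay below 0, and the median was -0.64. Among all genes 2.14% were 2-fold or more lower, and 5638 of 12198 lay below 0. Of these 27 genes, 7 were above background on 1 tumor array only. A gene that passes only through the Dclk1- array is nearly bound to lie below 0, so the filter can partly set the sign count. With 75th percentile scaling 22 of the 27 lay below 0. The serum amyloid Saa2 had 355 in Dclk1- cells and 35.1 in Dclk1+ cells (-2.23), the cytokine Il1b 805 in Dclk1- cells and 242 in Dclk1+ cells (-1.83) and the neutrophil chemokine Cxcl2 367 in Dclk1- cells and 84.3 in Dclk1+ cells (-1.704). Of 9 MHC genes 1 was lower and 0 higher, with a median of -0.08: the class II chain H2-Aa had 2238 in Dclk1- cells and 380.1 in Dclk1+ cells (-2.703), whereas the class I light chain B2m was close to equal at 3189.6 against 2759.5 (-0.08).

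Some markers of myeloid cells were lower as well, while others were close to equal. Of 20 myeloid markers 5 were 2-fold or more lower and 0 higher, 19 lay below 0, the median was -0.47, and their summed level was 5082 in Dclk1- and 2320 in Dclk1+ tumor cells. Of these 20, 2 were above background on 1 tumor array only, and 2.14% of all genes were 2-fold or more lower. With 75th percentile scaling 16 of the 20 lay below 0. Levels summed over all genes were 4488726 in Dclk1- and 5741310 in Dclk1+ tumor cells. The complement chains C1qa and C1qb had 569 in Dclk1- cells and 168 in Dclk1+ cells (-1.71) and 778 against 1812 (-1.43), and the Fc receptor chain Fcer1g had 237 against 816 (-1.88). Ms4a7 and Ctss, the other members past 2-fold, lay at -1.31 and -1.04. The macrophage receptor Adgre1 was not above background on either tumor array, and Csf1r was close to equal at 44.97 against 34.4 (0.06). Cd14 (-0.13) and Cd68 (-0.03) also had log2 differences near 0. Of the genes 4-fold or more lower, Arg1, the arginase of macrophages and enterocytes, had 2714 in Dclk1- cells and 619 in Dclk1+ cells (-2.31), Apoe 348 in Dclk1- cells and 47.6 in Dclk1+ cells (-2.05) and Cd52, a leukocyte surface peptide, 799 in Dclk1- cells and 202 in Dclk1+ cells (-2.01). Ms4a6d lay just short of 4-fold, with 1527 in Dclk1- cells and 443 in Dclk1+ cells (-1.98). Arg1, Apoe, Cd52 and Ms4a6d are not members of the myeloid list. The part of myeloid cells in these results was not tested.

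Markers of other cell types gave few members past 2-fold, as did all genes, of which 1.76% were higher and 2.14% lower. Among T and NK cell markers 0 of 11 were higher and 0 lower, with a median of 0.02, Cd3e was not above background on either array, and the summed level was 68.3 in Dclk1- and 83.8 in Dclk1+ cells. Levels summed over all genes were 4488726 in Dclk1- and 5741310 in Dclk1+ cells, so sums ran higher on the Dclk1+ array in general. B and plasma cell markers had 0 of 10 higher and 0 lower with a median of 0.06, with summed levels of 3750 and 6987 and Pax5 not above background, and mast cell markers 0 of 7 higher and 0 lower with a median of 0.00. Fibroblast markers were lower for 1 of 21, Vim at 92.5 against 343 (-1.54), and higher for 0, with a median of -0.11 and summed levels of 929 and 529.6. Endothelial markers had 0 of 15 higher and 0 lower with a median of 0.03, with Pecam1 and Cdh5 not above background. Of 8 neural and glial markers 1 was higher, S100b at 148 against 26.3 (1.098), 0 lower, and the median was 0.12. Erythroid markers had 0 of 5 higher and 0 lower with a median of -0.05.

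**Figure D4:**
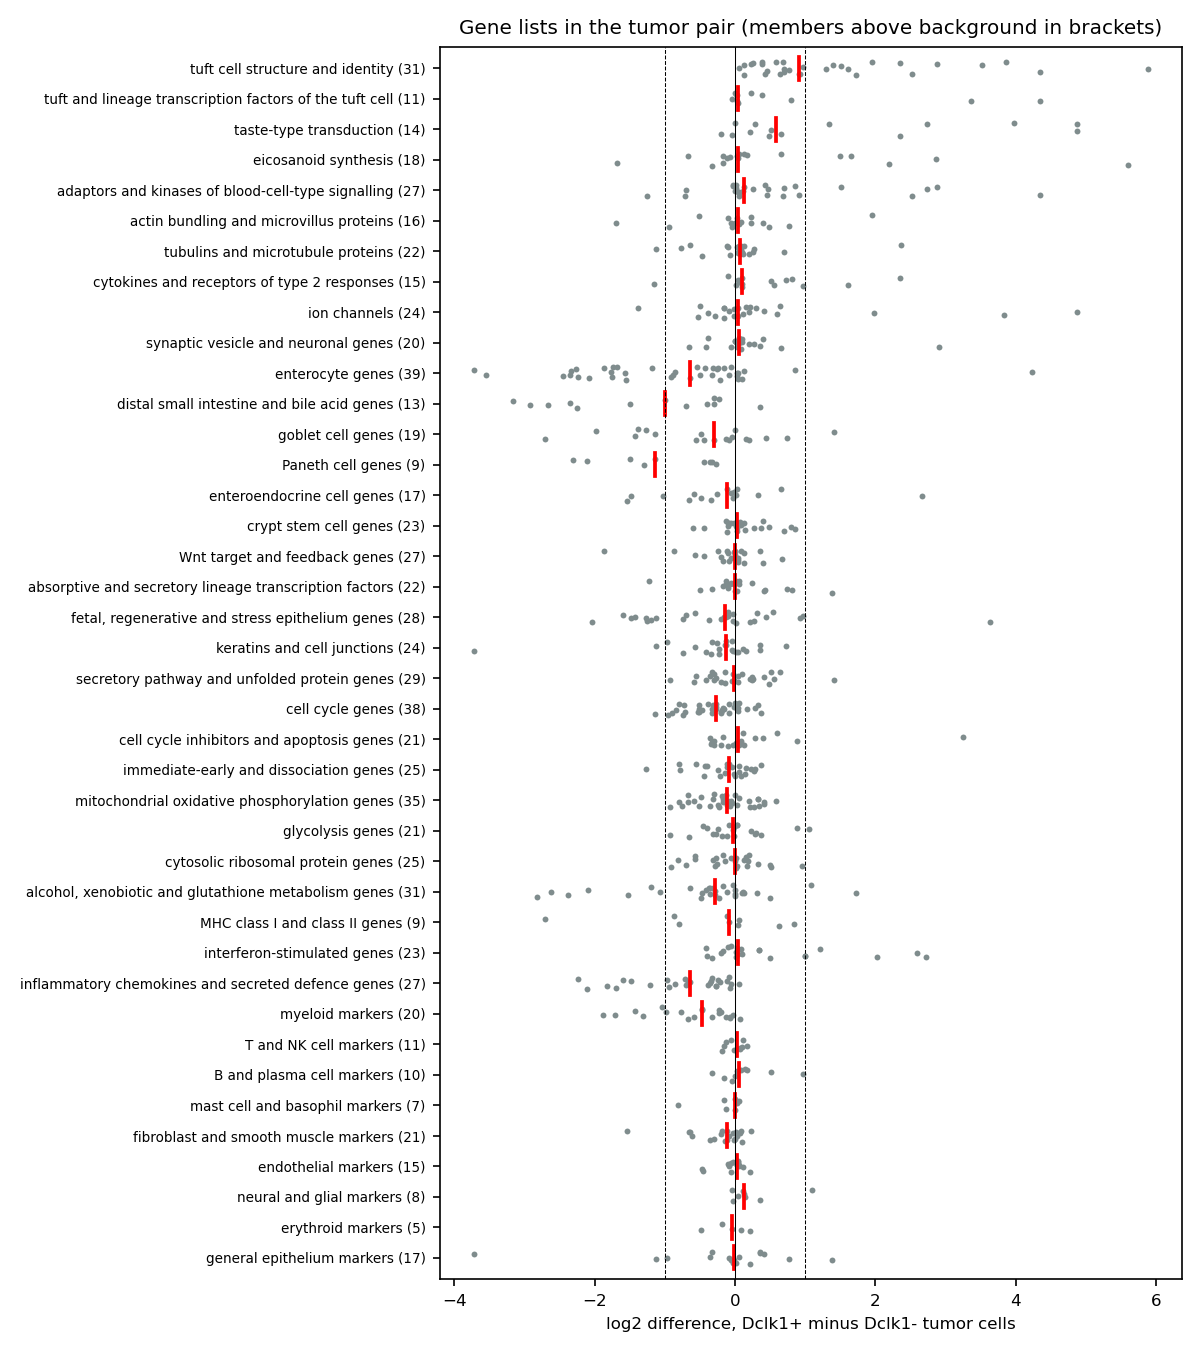
Log2 differences, Dclk1+ minus Dclk1- tumor cells, of the members of 40 gene lists that were above background (1 grey point a gene, their number in brackets) with the list median in red; dashed lines mark 2-fold. Tuft cell structure and identity has the highest median (0.91) with all 31 points above 0, and Paneth cell genes (-1.15) and distal small intestine genes (-0.998) have the lowest. Of the 31 tuft genes, 9 were above background on 1 array only, so the filter partly sets their sign. Among the lists of cell type markers at the foot of the plot, the myeloid markers have the lowest median (-0.47), and single points such as Krt20, Vim and S100b lie past the dashed lines.

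Of the 36 lower genes, 30 were 4-fold or more and 32 were 2-fold or more lower in the normal pair, and 30 were farther apart there than in the tumor pair. The others were Arg1 (-0.24 in the normal pair), Apoe (-0.06) and Anxa8 (0.01), which were under 2-fold there, and Cd52, which was higher in Dclk1+ normal cells (1.899). Lower genes in none of the lists numbered 13, among them the stress-linked mitochondrial protein Fam162a at 973 in Dclk1- cells and 125 in Dclk1+ cells (-2.74), the lectin Lgals3 at 1454 in Dclk1- cells and 389.9 in Dclk1+ cells (-2.07) and the transcriptional regulator Ifrd1 at 612 in Dclk1- cells and 111 in Dclk1+ cells (-2.19). Creb3l3, a membrane-bound factor of lipid metabolism, had 861 in Dclk1- cells and 166 in Dclk1+ cells (-2.31). Among named genes 2-fold or more apart, the sign turned with the local background of each spot subtracted for Bcl2l14, Apoa4, Slc28a2, Slc51a, Dpep1, Slc13a2, Wif1, Gata6 and Birc5. The local background followed the spot itself, with a correlation of logs of 0.979 in Dclk1- and 0.969 in Dclk1+ tumor cells.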

How the data were processed

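Total RNA of sorted cells was amplified and labelled with Cy5 for 1-colour arrays, per the labels' protocols. Per the file headers, the scanner output gives each spot's median intensity on a linear scale, before any subtraction. The authors also deposited a table of normalised intensity; set against the scanner values, each column is the spot intensity minus a constant near the mean of the blank spots, times a factor that puts the median near 25, with dim probes empty. No source used here says how the authors made it.

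Spot intensities were corrected with normexp (limma 3.58.1, R 4.3.3, offset 50). Controls and flagged probe spots (3 in Dclk1- tumor and 1 in Dclk1- normal) were removed, and quantile normalisation over the 4 arrays gave log2 values. The steps were tested on simulated arrays in which only bright spots were changed, so that test does not cover dim genes. A gene with several probes was represented by its brightest, taken as the mean over the arrays. Over the 129 genes with several probes above background in the tumor pair, the SD of the log2 difference between probes had a median of 0.16. Its root mean square was 0.38. A bound sets the brighter array against the lowest signal above background on the dim one. Symbols of the platform table were brought to RefSeq GRCm38.p6 names: 12622 were current, 3947 were synonyms of 1 gene, and the rest kept the array's name.

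With 1 array a group no p-value was computed, and precision is limited by the number of arrays. The genes named were Dclk1, the 40 largest and 40 smallest log2 differences, and of each list up to 10 members 2-fold or more apart and its first 4 members. Other genes 4-fold or more apart (such as Camkk2 and Zfp428), genes just outside that threshold, the taste receptors and close relatives named beside a member were chosen after their values were seen. The comparison, the lists and the genes were chosen with earlier results of these data known. The list symbol Mln, a synonym of an unrelated gene, was left out.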

Additional observations from a re-analysis of the deposited data

Results flagged for a closer look

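For 6 named genes the difference between Dclk1+ and Dclk1- cells was 2-fold or more one way in tumor and 2-fold or more the other way in normal epithelium, with 1 array in each group, and the difference between the pairs was not tested. Cd52 lay at -2.01 in tumor and 1.899 in normal (log2). Ms4a6d lay at -1.98 and 1.36, Il1b at -1.83 and 1.63, C1qb at -1.43 and 1.32, and Anxa10 at -1.201 and 1.62. Ern2 ran the other way, at 1.404 in tumor and -2.42 in normal. Over all genes, 11 of the 321 that were 2-fold or more apart in both pairs were so in opposite directions, and 4 of the 11 were higher in Dclk1+ tumor cells.

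Probes without a gene symbol were counted apart: of 4442 such probes above background in the tumor pair, 16 were 4-fold or more higher and 18 lower in Dclk1+ cells. Of 12198 named genes 52 (0.426%) were higher and 36 (0.295%) lower. The counts of unnamed probes are near these shares and say nothing particular about them.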

How the results depend on the processing

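The 2 counts of genes 4-fold or more apart, 52 higher and 36 lower, were recomputed under 11 other settings. They moved by more than 1.5 times under 4 of them: an offset of 16 gave 84 higher and 76 lower, subtraction of the blank mean with a floor gave 389 and 517, normexp on the local background gave 100 and 67, and the authors' deposited values, which differ in both offset and scaling, gave 530 and 417. Of the 52 higher and 36 lower genes, all were again past 4-fold with an offset of 16 and with the blank mean subtracted, 52 and 30 were with the deposited values, and 27 and 19 with the local background. Of the scalings alone, median scaling gave 39 and 49, the 75th percentile 48 and 37, and quantiles over the tumor arrays alone 52 and 31. The median difference of all genes was 0.13 with 75th percentile scaling and 0.35 with the deposited values, against 0.01. Filters on dim genes and the mean over probes gave 47 to 52 higher and 35 to 36 lower. Sign changes were counted only for those of the 230 named genes that were 2-fold or more apart in the main setting. Among them 9 changed sign with the local background subtracted and 0 under each of the other settings. The 9 were Bcl2l14 (-0.54), Apoa4 (0.17), Slc28a2 (0.99), Slc51a (0.46), Dpep1 (0.14), Slc13a2 (0.17), Wif1 (0.67), Gata6 (0.94) and Birc5 (2.53). Sign changes of named genes under 2-fold apart were not counted. The median of the tuft identity list ranged from 0.52 to 3.01, that of enterocyte genes from -2.04 to -0.18 and that of Paneth cell genes from -1.53 to -0.79. No array could be left out, and no paired analysis was possible because each group has 1 array. Signals close to the blank spots limit what the arrays can show of dim genes.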
